A study of Homo sapiens with 6 samples.

Results

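The decapping and P-body core was examined as 10 genes, DCP2, DCP1A, DCP1B, EDC3, EDC4, DDX6, PATL1, LSM14A, EIF4ENIF1 and XRN1, found by symbol among 19940 gene rows. All 10 were present on 1 row each and all 10 passed the filter on low counts. The cells were U2OS, a human osteosarcoma line, all carrying a stable transgene that overexpresses GFP fused to DCP1A and kept under selection with G418. Total RNA was depleted of ribosomal RNA and sequenced in 6 libraries, 2 for each of 3 groups. Isotonic cells were kept in medium with 150 mM sodium, mock-supplemented with 1x PBS, and hypertonic cells in medium brought to 300 mM sodium with 10x PBS, for 4 h. Rescue cells had 4 h of the hypertonic medium and then 4 h of isotonic medium, so they were harvested later than the others and had no time-matched isotonic group. Every group carried the transgene, and no cells without it were part of the design. The labels name neither the promoter that drives the transgene nor whether the line is 1 clone. They state that samples were sequenced in duplicate and mention no separate cultures, so the p-values may not measure spread between cultures.

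P-bodies are cytoplasmic granules of RNA and protein that form without a membrane. In them and in the surrounding cytosol, mRNA that has lost its poly(A) tail has its 5' cap removed by DCP2, helped by DCP1 and the EDC proteins, after which the exonuclease XRN1 degrades the body of the RNA from its 5' end. DDX6, PATL1, LSM14A and the protein 4E-T, encoded by EIF4ENIF1, link translational repression to decapping and are needed for P-bodies to assemble. DCP1A is a common marker of P-bodies, and the study asked how transcript levels changed when the cells were exposed to and released from osmotic stress.

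The total count was between 90196278 and 105991428 per library, at which even the lowest count of a member, that of DCP1B in isotonic 2, had a counting error of 3.29%. Isotonic and hypertonic libraries did not cluster by their labels. Over 18208 genes, 4139 differed by 2-fold or more between isotonic 1 and isotonic 2, but 45 between isotonic 1 and hypertonic 2 and 67 between isotonic 2 and hypertonic 1. Of the osmoadaptive genes, SLC38A2 was at 341 and 344 CPM (counts scaled to the library total) in isotonic 1 and hypertonic 2, and at 2727 and 2697 CPM in isotonic 2 and hypertonic 1. NFAT5, SLC5A3, SLC6A6 and AKR1B1 were also higher in isotonic 2 and hypertonic 1 than in the other pair. The labels of isotonic and hypertonic libraries may therefore have been exchanged in 1 of the numbers, which the files cannot settle. Groups were kept as labelled, and every isotonic or hypertonic value, group mean and comparison below holds only as far as those labels do. Over all genes the SD of the log2 ratio was 0.956 between the isotonic, 0.945 between the hypertonic and 0.186 between the rescue libraries. The tests used 1 spread per gene for all groups, so genes differing inside the isotonic and hypertonic pairs passed less readily. Of 10 bone lineage markers 4, SPARC, COL1A1, RUNX2 and VIM, were at 5 CPM or more in all libraries, while IBSP, COL1A2 and SP7 were under 1 CPM in all. The summed level of 8 leukocyte markers was 12.1 to 13.6 CPM in the isotonic and hypertonic libraries and 28.8 and 28.3 CPM in rescue, with CD3E listed at 0 in the former. The sum of 8 endothelial markers was 32.6 to 58.3 CPM against 76.2 and 72.9 CPM, and that of 8 epithelial markers 358 to 573 CPM against 493 and 468 CPM. By library total, the leukocyte and endothelial sums were thus higher in rescue than in all other libraries, alongside every rescue result below. The epithelial sum lay inside the range of the others. With the scaling used for the tests, the endothelial sum of rescue 2 also lay within the range of the isotonic and hypertonic libraries. The part of these markers in the rescue results was not tested.

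The data on the 10 genes fell into 3 parts. In the rescue libraries EDC4, DCP1A, PATL1, DDX6 and LSM14A were lower than in all other libraries. Their fitted falls against isotonic, with the scaling used for the tests, were between 1.54-fold (DDX6) and 2.58-fold (EDC4). These 5 passed the test as lower, where 13.5% of all genes did. No member passed it as higher, where 9.61% of genes did, and 0 members passed in either direction when any 1 isotonic or rescue library was left out. By library total, DCP1B, EDC3 and EIF4ENIF1 were higher in both rescue libraries than in the other 4, where 46.9% of all genes were. With the scaling used for the tests, EDC3 and EIF4ENIF1 did not keep that position. DCP1B varied most, over an 8.25-fold range, with its lowest levels in isotonic 2 and hypertonic 1 and its highest in rescue. DCP2, the catalytic subunit, varied least by library total, between 87.3 and 105 CPM, but not with scaling by the trimmed mean of M values (TMM), where its range of 1.55-fold exceeded the 1.40-fold of EDC3. In bulk RNA, fewer cells with a transcript and less of it per cell cannot be told apart.

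**Figure D1:**
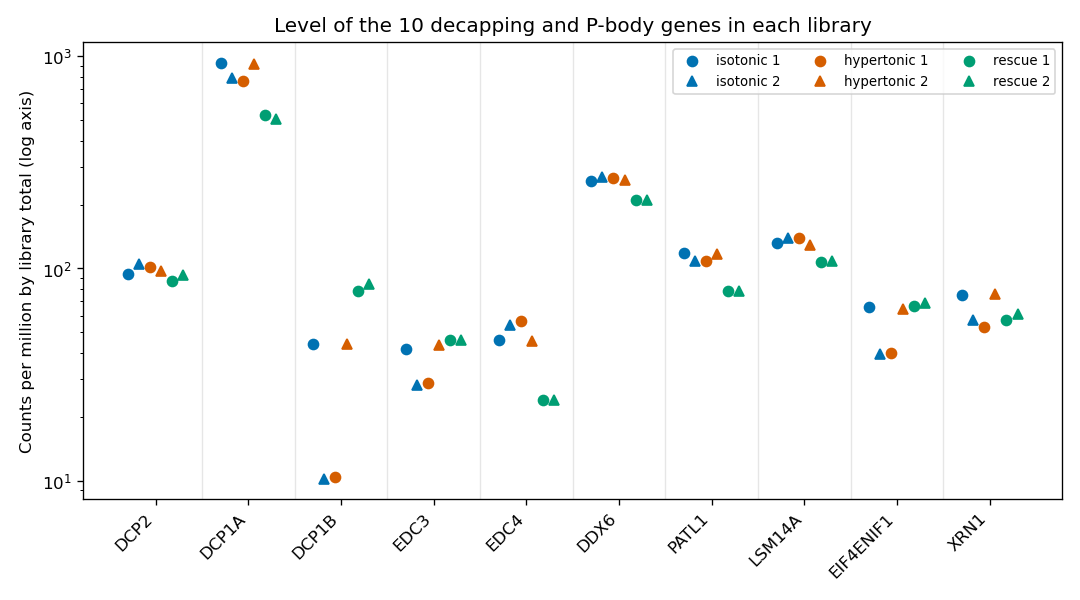
CPM by library total (log axis) of the 10 genes in each of the 6 libraries, with colour for the group as labelled, circles for number 1 and triangles for number 2. DCP1A lies at 505 CPM or more in every library, DCP1B runs from 10.2 to 84.4 CPM, and the 2 rescue points of EDC4 lie at 23.9 and 24.0 CPM, below its other 4.

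Promoter sequences from RefSeq (GRCh38.p14) were found for 9 of the 10 members. The 3 with the largest falls that passed the test are shown, as the part of the 250 bases before the RefSeq start that lies outside exons of GENCODE 29, read 5' to 3' on the strand of the gene. Capitals mark the GC box of the factor Sp1, GGGCGG or its reverse CCGCCC. They lie at chr16:67872802-67873022 on the plus strand for EDC4, chr3:53347611-53347793 on the minus strand for DCP1A and chr11:59669038-59669287 on the minus strand for PATL1.
EDC4: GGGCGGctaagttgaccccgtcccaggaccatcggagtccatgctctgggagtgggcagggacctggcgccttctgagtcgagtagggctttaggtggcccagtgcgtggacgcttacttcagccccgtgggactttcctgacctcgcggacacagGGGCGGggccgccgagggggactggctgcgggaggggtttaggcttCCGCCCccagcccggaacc
DCP1A: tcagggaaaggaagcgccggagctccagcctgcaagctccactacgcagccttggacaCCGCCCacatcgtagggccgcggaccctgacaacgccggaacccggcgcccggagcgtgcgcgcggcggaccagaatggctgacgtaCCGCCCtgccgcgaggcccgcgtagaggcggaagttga
PATL1: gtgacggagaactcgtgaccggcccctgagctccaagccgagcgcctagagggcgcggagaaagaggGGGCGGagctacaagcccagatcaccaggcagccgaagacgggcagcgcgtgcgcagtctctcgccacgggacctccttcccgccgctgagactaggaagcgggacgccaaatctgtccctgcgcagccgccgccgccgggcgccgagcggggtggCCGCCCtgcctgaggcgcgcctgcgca
All 3 stretches hold GC boxes, 3 in EDC4, 2 in DCP1A (of 3 in its full window) and 2 in PATL1.

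Over the full windows of 250 bases, read on both strands, the GC box was present for 8 of the 9 members and in 42.6% of 35116 promoters. The ETS motif CCGGAAG was present for DCP1B and EDC3, and in 8.52% of promoters. The CCAAT box was present for DCP2 alone of the members, 5 times, and in 32.0% of promoters. The AP-1 motif TGANTCA (6.57% of promoters), the cyclic AMP response element TGACGTCA (1.65%), the core TGGAAA shared by NFAT sites (18.0%), the E-box CACGTG (6.34%) and the heat shock element GAANNTTC (5.78%) were in none of the members' windows. No marked match overlapped another in the printed stretches. A match is a description of letters, and their absence from these windows says nothing about the factors.

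DCP2, on chromosome 5 from 112976702 to 113020970 (GRCh38, GENCODE 29, as for all positions of genes here), encodes the hydrolase that removes the cap. It was measured at 93.8 and 105 CPM in isotonic 1 and 2, at 101 and 96.9 CPM in hypertonic 1 and 2, with rescue 1 and 2 at 87.3 and 93.1 CPM. All 6 values lay close together, with both rescue libraries below the others, rescue 2 by a narrow margin. Its fitted change in rescue against isotonic was -0.44 on the log2 scale (SE 0.156) and did not pass the test (edgeR quasi-likelihood test, Benjamini-Hochberg adjusted p = 0.112). Fitted changes here and below use TMM, so they can differ from ratios of the CPM by library total beside them.

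DCP1A, on chromosome 3 from 53283428 to 53347610, encodes the activating partner of DCP2 that the transgene also carries. Its row stood at 927 and 785 CPM in isotonic 1 and 2, 764 and 916 CPM in hypertonic 1 and 2, and 527 and 505 CPM in rescue 1 and 2. Rescue was lower than the other 4 libraries without overlap, and isotonic 2 and hypertonic 1 lay below isotonic 1 and hypertonic 2. The mean was 516 ± 15.5 CPM in rescue and 856 ± 100.3 CPM in isotonic (SD, n = 2 each), and the fitted change was -1.02 (SE 0.098; edgeR quasi-likelihood test, adjusted p = 0.0094). The row may hold reads of the transgene, and these were not separated from those of the endogenous gene, so a change in either would appear the same here. CACNA1D, a calcium channel gene on the opposite strand, overlaps 29.1% of the span of DCP1A and was at 65.9 to 127 CPM. The sources used here do not say whether counting used strand.

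DCP1B, on chromosome 12 from 1946054 to 2004535, encodes the paralogue of DCP1A. It was at 44.1 and 10.2 CPM in isotonic 1 and 2, at 10.5 and 44.2 CPM in hypertonic 1 and 2, with rescue 1 and 2 at 78.1 and 84.4 CPM. Isotonic 2 and hypertonic 1 were the low libraries, isotonic 1 and hypertonic 2 were intermediate, and both rescue libraries were above all others. The isotonic libraries were uneven, at 27.2 ± 24.0 CPM (SD, n = 2), and the fitted change of 1.33 in rescue (SE 0.907) did not pass the test (edgeR quasi-likelihood test, adjusted p = 0.35). Rescue 1 was 0.82 higher than isotonic 1 on the log2 scale and rescue 2 was 3.04 higher than isotonic 2, each 1 library over 1 library.

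The value of DCP1B is uncertain, because CACNA1C, another calcium channel gene, overlaps 57.7% of its span on the opposite strand. The row of CACNA1C was at 52.7 and 21.0 CPM in isotonic 1 and 2, at 20.8 and 49.6 CPM in hypertonic 1 and 2, with rescue 1 and 2 at 74.3 and 80.0 CPM. Its libraries stood in the same broad order as those of DCP1B, and if strand was not used the same reads may count for both genes.

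EDC3, on chromosome 15 from 74630558 to 74696292, encodes a scaffold that binds DCP2 and DDX6. It was at 41.7 and 28.1 CPM in isotonic 1 and 2, at 28.9 and 43.5 CPM in hypertonic 1 and 2, with rescue 1 and 2 at 46.0 and 46.2 CPM. As with DCP1B, isotonic 2 and hypertonic 1 were the low libraries, and rescue was above all others, though here only narrowly above hypertonic 2. The fitted change in rescue was 0.12 (SE 0.229) and did not pass (edgeR quasi-likelihood test, adjusted p = 0.742). CLK3, on the opposite strand, overlaps 22.6% of its span.

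EDC4, on chromosome 16 from 67873023 to 67884503, encodes the large scaffold that joins DCP1 and DCP2 in human cells. It was at 46.0 and 54.1 CPM in isotonic 1 and 2, at 56.5 and 45.7 CPM in hypertonic 1 and 2, with rescue 1 and 2 at 23.9 and 24.0 CPM. The rescue libraries lay below all others by a wide margin and next to each other, at a mean of 24.0 ± 0.056 CPM against 50.1 ± 5.74 CPM in isotonic (SD, n = 2 each). The fitted fall, which uses TMM and is not the ratio of these CPM, was the largest among the members. It was 2.58-fold (log2 fold change -1.37, SE 0.228, edgeR quasi-likelihood test, adjusted p = 0.0222). Unlike DCP1B and EDC3, EDC4 was higher in isotonic 2 and hypertonic 1 than in the other pair. No other gene row overlaps it, and a long non-coding RNA gene without a row covers 17.8% of its span on the same strand.

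DDX6, on chromosome 11 from 118747766 to 118791149, encodes the helicase that represses translation and recruits the decapping factors. It was at 258 and 269 CPM in isotonic 1 and 2, at 266 and 260.2 CPM in hypertonic 1 and 2, with rescue 1 and 2 at 210.2 and 209.6 CPM. The first 4 libraries lay within a narrow band and the rescue libraries below it. The fitted change in rescue was -0.63 (SE 0.125; edgeR quasi-likelihood test, adjusted p = 0.0306).

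PATL1, on chromosome 11 from 59636716 to 59668980, encodes a bridge between DDX6, the Lsm1-7 ring and the decapping complex. It was at 118 and 109 CPM in isotonic 1 and 2, at 109 and 118 CPM in hypertonic 1 and 2, with rescue 1 and 2 at 78.5 and 78.3 CPM. Both rescue libraries were lower than all others. The fitted change was -0.83 (SE 0.092; edgeR quasi-likelihood test, adjusted p = 0.0109).

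LSM14A, on chromosome 19 from 34172504 to 34229515, encodes an RNA-binding partner of DDX6 and 4E-T. It was at 132 and 139 CPM in isotonic 1 and 2, at 139 and 129.7 CPM in hypertonic 1 and 2, with rescue 1 and 2 at 107 and 109 CPM. Its groups behaved as those of DDX6, with rescue below and no overlap. The fitted change was -0.63 (SE 0.143; edgeR quasi-likelihood test, adjusted p = 0.0421), which lay near the threshold.

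EIF4ENIF1, on chromosome 22 from 31436977 to 31496108, encodes 4E-T, which binds the cap-binding protein eIF4E and carries it into P-bodies. It was at 65.9 and 39.5 CPM in isotonic 1 and 2, at 39.8 and 64.7 CPM in hypertonic 1 and 2, with rescue 1 and 2 at 66.7 and 68.7 CPM. The rescue libraries were only slightly above isotonic 1 and hypertonic 2, and isotonic 2 and hypertonic 1 were low. The fitted change was 0.08 (SE 0.286; edgeR quasi-likelihood test, adjusted p = 0.857). Its whole span lies inside that of DRG1 on the opposite strand and SFI1 overlaps 12.5% of it, so its value is uncertain too. DRG1 was at 163 and 109 CPM in isotonic 1 and 2 and at 107 and 163 CPM in hypertonic 1 and 2, low in the same libraries as EIF4ENIF1. In rescue, where EIF4ENIF1 was at its highest by library total, DRG1 was at 121 and 124 CPM, below isotonic 1 and hypertonic 2. With TMM, EIF4ENIF1 was at 58.4 and 59.6 CPM in rescue, below isotonic 1 at 66.8 CPM and hypertonic 2 at 66.0 CPM.

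XRN1, on chromosome 3 from 142306607 to 142448062, encodes the exonuclease that degrades decapped RNA. It was at 75.0 and 56.9 CPM in isotonic 1 and 2, at 53.1 and 76.1 CPM in hypertonic 1 and 2, with rescue 1 and 2 at 57.1 and 61.0 CPM. Rescue lay inside the range of the others. The fitted change was -0.45 (SE 0.178) and did not pass (edgeR quasi-likelihood test, adjusted p = 0.145). Isotonic 2 and hypertonic 1 were lower than isotonic 1 and hypertonic 2, and no other gene row overlaps XRN1.

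Per kilobase of exon, DCP1A stood far above the others, with a mean level over the 6 libraries of 120.3 CPM per kb (range 82.4 to 151). Its row may hold reads of the transgene, so this place may not be that of the endogenous gene. LSM14A, PATL1 and DDX6 followed at 26.5, 23.7 and 21.5 CPM per kb, with ranges over the libraries that overlapped one another. DCP1B, DCP2, EIF4ENIF1, EDC3, EDC4 and XRN1 were at 9.82, 9.67, 9.46, 7.66, 6.76 and 5.28 CPM per kb. Within that lower set each neighbour in the order overlapped the next across libraries. Per kilobase of the whole gene span, introns included, DCP1A was again first at 11.5 CPM per kb and XRN1 last at 0.447 CPM per kb, but EDC4, a short gene, moved to the third place at 3.63 CPM per kb. That place did not hold in rescue, where EDC4 was at 2.08 and 2.09 CPM per kb of span and PATL1 at 2.43 in both libraries. The sources used here do not say which of these lengths the counting covered.

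The comparison of hypertonic with isotonic cells asks what the osmotic change did to these transcripts. Grouped as labelled, 0 of 10 members passed the edgeR quasi-likelihood test, beside 0% of all genes tested in either direction, and 0 members had an unadjusted p under 0.05 (52 of all genes did). DESeq2 and limma voom also called 0 members. Of all genes, the smallest adjusted p was 2.8e-06 with DESeq2 and 0.999997 with limma voom. In both, 0 members had an unadjusted p under 0.05, where 0.231% and 0.242% of all genes did. In 0 members were the labelled groups free of overlap, where 3.05% of genes were lower and 2.59% higher without overlap. With the groups taken within a number, the members went opposite ways. By library total, hypertonic 1 exceeded isotonic 1 in 4 members (EDC4, DCP2, LSM14A and DDX6) and was below it in 6. In number 2 all 10 had the reverse sign. This is not particular to the members. Over all genes, deviations from the group means correlated at -0.88 between isotonic and hypertonic libraries of the same number. The share of all genes with a reversed sign was not counted.

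DCP1B was 2.08 lower on the log2 scale in hypertonic 1 than in isotonic 1 and 2.11 higher in hypertonic 2 than in isotonic 2. It was the 1 member past 2-fold, where 12.6% of all genes were at least 2-fold lower in number 1 and 12% at least 2-fold higher in number 2. In the opposite directions, with 0 members, the shares of all genes were 10% and 10.4%. EIF4ENIF1 had ratios of -0.73 and 0.71, EDC3 of -0.53 and 0.63, XRN1 of -0.50 and 0.42, and DCP1A of -0.28 and 0.22. EDC4 went the other way, at 0.30 and -0.24. The sign of PATL1, at -0.12 and 0.11 by library total, turned to 0.04 and -0.03 with TMM, so no direction holds for it. These are ratios of 1 library over 1 library and have no replicate check.

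With isotonic 2 and hypertonic 2 left out, and the spread taken from the rescue libraries, 4 members were called higher (background 31.6% of genes) and 4 lower (32.6%) in hypertonic against isotonic. With isotonic 1 and hypertonic 1 left out instead, 4 were called higher (32.9%) and 4 lower (31%). In the first fit EDC4, DCP2, LSM14A and DDX6 were the higher ones and DCP1B, EIF4ENIF1, EDC3 and XRN1 the lower ones, and in the second their directions were exchanged. DCP1A and PATL1 were not called in either fit.

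**Figure D2:**
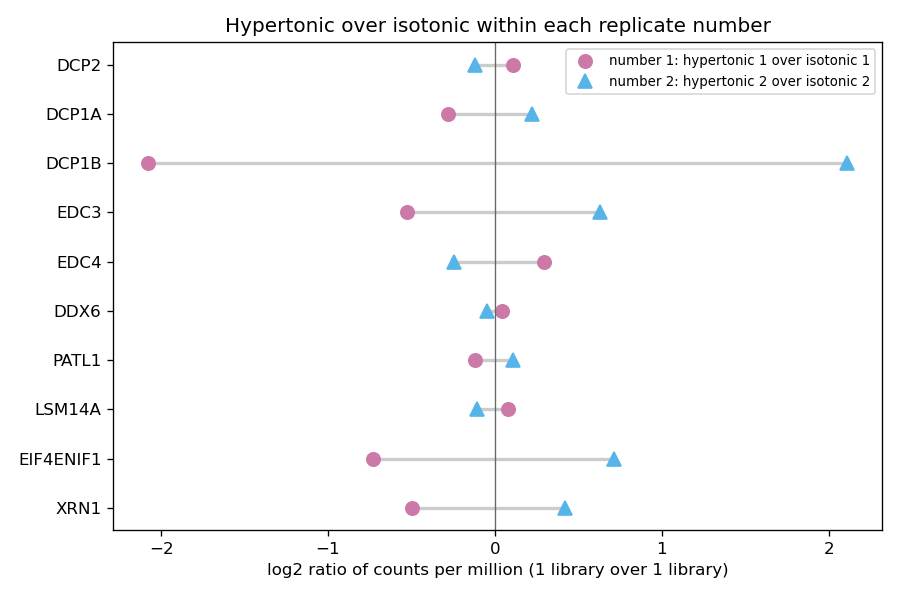
The log2 ratio of CPM, hypertonic over isotonic, for each gene, as circles for number 1 and triangles for number 2, each 1 library over 1 library. Every gene has its 2 points on opposite sides of 0, with DCP1B widest at -2.08 and 2.11.

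Libraries that lay close over all genes also lay close over the members. Isotonic 1 and hypertonic 2 differed by at most 4.43% in any member, isotonic 2 and hypertonic 1 by at most 7.17%, and rescue 1 and 2 by at most 8.09%. Over the 10 members the root mean square log2 ratio was 0.029 and 0.046 in the former pairs, and 0.75 both between the isotonic libraries and between the hypertonic libraries.

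The comparison of rescue with isotonic cells asks which transcripts differed from isotonic cells after the return to isotonic medium, without a time-matched isotonic group. Of the 10 members 5 fell (EDC4, DCP1A, PATL1, DDX6 and LSM14A) and 0 rose by the edgeR quasi-likelihood test, where 13.5% of all genes tested were called lower and 9.61% higher. The median log2 fold change of the 10 members was -0.54, against -0.02 for all genes. In rescue against hypertonic, which shares the rescue libraries, 5 members were called lower (background 13.8%) and 0 higher (9.86%). The fitted changes there were -1.40 for EDC4, -0.83 for PATL1, -0.63 for DDX6 and -0.62 for LSM14A, with adjusted p values of 0.0207, 0.0105, 0.0299 and 0.0426 (edgeR quasi-likelihood test). DCP1A, at 516 ± 15.5 CPM against 839.8 ± 108 CPM in hypertonic (SD, n = 2 each), had an adjusted p of 0.00953 in the same edgeR fit.

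By library total, 6 members, these 5 and DCP2, were lower in both rescue libraries than in all other 4 libraries, where 21.8% of all genes were, and 3, DCP1B, EDC3 and EIF4ENIF1, were higher, where 46.9% were. Against the isotonic libraries alone the same 6 and 3 members did not overlap (22.8% of genes lower and 48.6% higher), and likewise against hypertonic alone (22.8% and 49.1%). These positions depend on scaling. With TMM, EDC3 in rescue 1, at 40.3 CPM, lay below isotonic 1, at 42.3 CPM, and EIF4ENIF1 in rescue 1, at 58.4 CPM, below isotonic 1, at 66.8 CPM. XRN1 in both rescue libraries, at 52.9 CPM or less, then lay below all others, whose lowest was hypertonic 1 at 60.04 CPM. The number called depended on the libraries. Without isotonic 1, without isotonic 2, without rescue 1 or without rescue 2, 0 members and 0 of all genes passed in rescue against isotonic (edgeR quasi-likelihood test). The unadjusted p was then under 0.05 for 6, 5, 4 and 4 members, and for 35.6%, 31.7%, 20.6% and 19.9% of all genes. The fitted change of EDC4 was -1.55 without isotonic 1 and -1.16 without isotonic 2, and that of DCP1A -0.98 and -1.07. With isotonic 2 and hypertonic 2 left out, 8 members were called lower (background 38.6%) and 1 higher (40.5%), and with isotonic 1 and hypertonic 1 left out 7 lower (40.1%) and 3 higher (40.7%). In rescue against hypertonic these fits called 7 lower (40.5%) and 3 higher (41%), and 8 lower (38.6%) and 1 higher (40.5%).

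Scaling also moved the comparison. With library totals in place of TMM the median of all genes in rescue against isotonic shifted from -0.02 to 0.27, and genes called went from 1749 higher and 2453 lower to 2050 higher and 1095 lower. The members' median was then -0.24, with 4 called lower (background 6.01%) and 0 higher (11.3%), LSM14A being lost. In rescue against hypertonic it was 4 lower (6.03%) and 0 higher (11.6%). Upper quartile scaling called 3 members lower, EDC4, DCP1A and PATL1, where 7.71% of all genes were, and 0 higher, where 11.5% were.

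**Figure D3:**
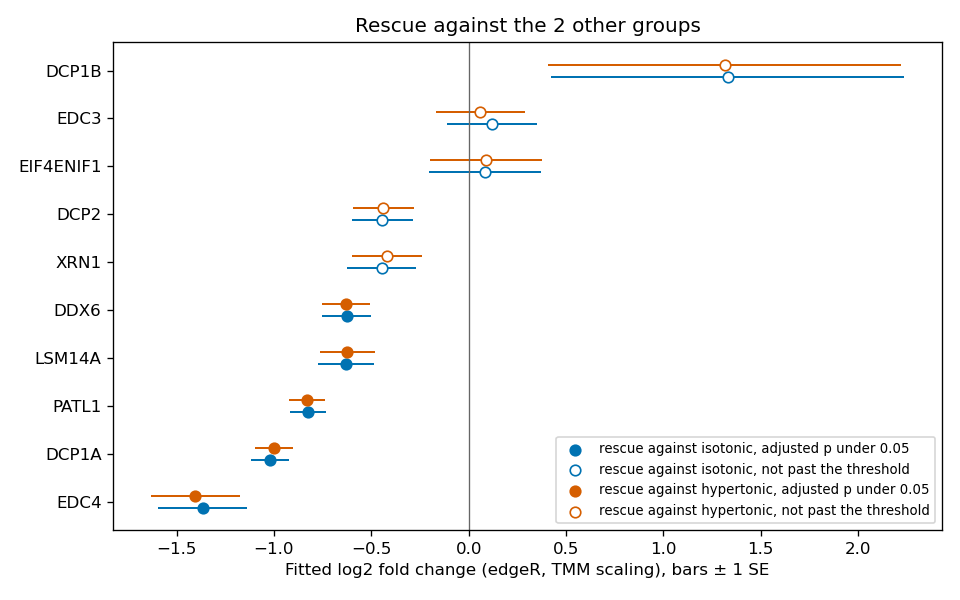
Fitted log2 fold changes with bars of 1 SE from the edgeR fit, rescue against isotonic in blue and rescue against hypertonic in orange, with filled points for an adjusted p under 0.05. EDC4, DCP1A, PATL1, DDX6 and LSM14A are filled in both comparisons, and DCP1B has the widest bars, with an SE of 0.907 against isotonic.

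Ratios between members inside a library do not depend on scaling. DCP1A over DCP1B, the balance of the 2 DCP1 paralogues, was 21.0 and 76.8 in isotonic 1 and 2, 73.1 and 20.7 in hypertonic 1 and 2, and 6.74 and 5.98 in rescue 1 and 2. Rescue was lowest and isotonic 2 and hypertonic 1 highest, with the limits on both rows given above. EDC4 over EDC3, the balance of the 2 scaffolds, was 1.10 and 1.93 in isotonic, 1.96 and 1.05 in hypertonic, and 0.519 and 0.520 in rescue. EDC4 was thus above EDC3 in counts in 4 libraries and below it in both rescue libraries.

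EDC4 over DCP2 was between 0.472 and 0.559 in the isotonic and hypertonic libraries and 0.274 and 0.258 in rescue. DCP1A over DCP2 was 9.88 and 7.47 in isotonic, 7.55 and 9.45 in hypertonic, and 6.03 and 5.42 in rescue. DDX6 over LSM14A stayed between 1.91 and 2.01 in all 6 libraries. DCP2 over DDX6 lay between 0.364 and 0.444, and PATL1 over DDX6 between 0.373 and 0.456. EIF4ENIF1 over DDX6 was 0.255 and 0.147 in isotonic, 0.149 and 0.249 in hypertonic, and 0.317 and 0.328 in rescue.

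Of the counts of all 10 members, DCP1A took 51.5% and 49.2% in isotonic, 48.7% and 51.0% in hypertonic, and 41.1% and 39.5% in rescue. Reads of the transgene may be part of these shares. The summed level of the 10 was 1801 and 1597 CPM in isotonic, 1567 and 1795 CPM in hypertonic, with rescue at 1281 and 1279 CPM. Without DCP1A the sum was between 804 and 879 CPM in the isotonic and hypertonic libraries and 755 and 774 CPM in rescue. With TMM the gap was wider, at 886 to 914 CPM against 661 and 671 CPM.

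**Figure D4:**
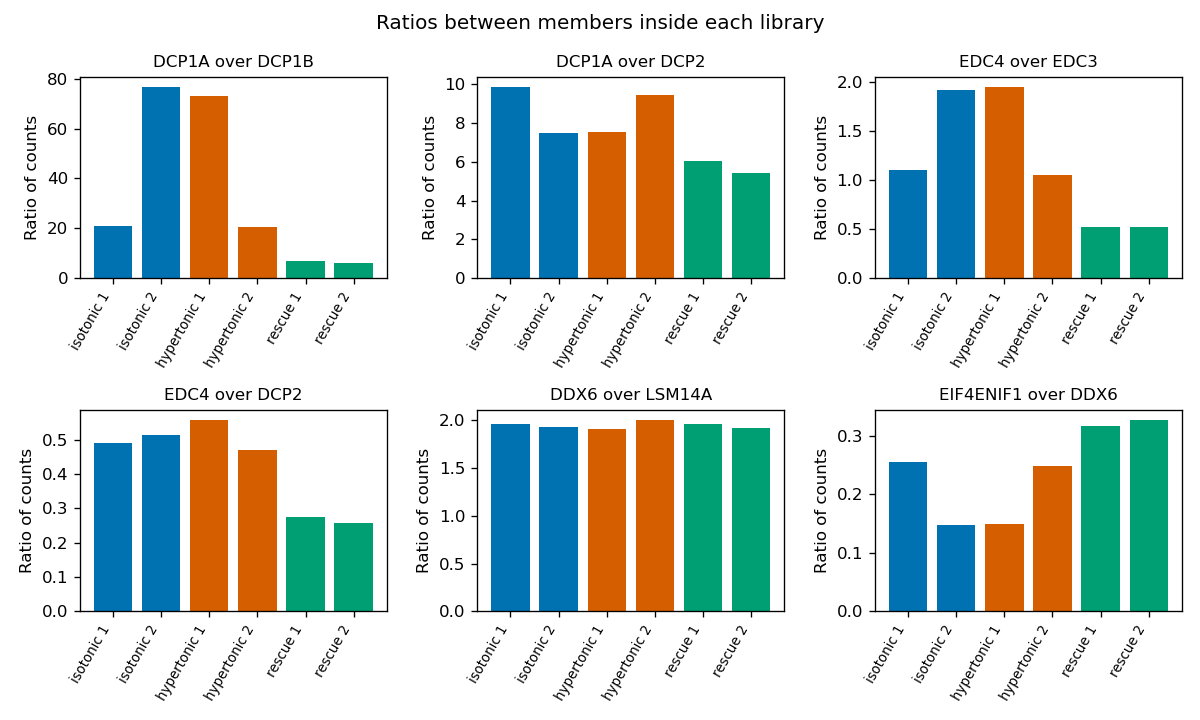
Ratio of the counts of 2 members in each library, as bars from 0, coloured by labelled group. DDX6 over LSM14A is level at 1.91 to 2.01, while EDC4 over EDC3 is lowest in rescue, at 0.519 and 0.520, and DCP1A over DCP1B is highest in isotonic 2 and hypertonic 1.

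Among 13155 genes at 5 CPM or more on average, the 3 whose levels followed DCP1A most closely over the 6 libraries were MFN2, PPIF and PPA1. Their root mean square distances from DCP1A, on centred log2(CPM + 0.1) values, were 0.016, 0.018 and 0.018. MFN2, which encodes a protein of mitochondrial fusion, was at 127 and 109 CPM in isotonic, 107 and 126 CPM in hypertonic, with rescue at 72.4 and 68.0 CPM. They were chosen for this likeness, so it is a description only.

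Of the 3 paralogues of other members, LSM14B and XRN2, which encodes the nuclear counterpart of XRN1, fell in rescue against isotonic. XRN2 was at 186 and 189.8 CPM in isotonic, 185 and 186 CPM in hypertonic, with rescue at 138 and 141 CPM (log2 fold change -0.73, SE 0.115; edgeR quasi-likelihood test, adjusted p = 0.019). Unlike XRN1, it was nearly level across the isotonic and hypertonic libraries. LSM14B was at 65.6 and 52.3 CPM in isotonic and 41.5 and 38.4 CPM in rescue (log2 fold change -0.85; edgeR quasi-likelihood test, adjusted p = 0.0279). PATL2 went the other way, at 0.367 to 1.16 CPM in the isotonic and hypertonic libraries and 3.06 and 2.88 CPM in rescue, without passing the test (log2 fold change 1.62, SE 0.693; edgeR quasi-likelihood test, adjusted p = 0.167).

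Lists of other mRNA decay genes are given for the same comparison, each to be read against the 13.5% of all genes called lower and 9.61% called higher. Folds and medians are from the fit with TMM, while CPM are by library total. Of 22 genes of the Lsm1-7 ring and other decapping cofactors, 4 fell (18.2%) and 1 rose (4.55%), with a median of -0.40, shares near or below those of all genes. NUDT3, another decapping hydrolase, was 2.10-fold lower, ZFP36L1, which recruits decay factors to AU-rich elements, 1.78-fold and LSM7, of the ring, 1.59-fold. NBDY, a microprotein that binds EDC4, was 1.48-fold higher, at 30.5 and 27.3 CPM in isotonic and 49.4 and 55.2 CPM in rescue. The row of NUDT3 overlaps a readthrough row and that of LSM7 another row on its whole span, so both are uncertain.

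Of 13 genes listed with 4E-T and DDX6, not all of them known partners, 5 fell (38.5%) and 2 rose (15.4%), with a median of -0.49. TOP2B, which encodes a DNA topoisomerase and is not an established partner of either, was 2.42-fold lower. EIF4E3, a relative of eIF4E, was 1.96-fold and FAM120A 1.88-fold lower. CPEB1, which controls the poly(A) tails of stored mRNA, was 2.61-fold and MARF1 1.60-fold higher. EIF4E3, CPEB1 and MARF1 each overlap another row over at least 28.4% of their span. Of 14 factors of nonsense-mediated decay, 6 fell (42.9%) and 0 rose, with a median of -0.46. SMG5, which binds phosphorylated UPF1, was 2.16-fold lower and UPF3B, of the exon junction branch of the pathway, 1.76-fold.

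Of 18 genes of the exosome and the SKI complex, the machinery of 3' to 5' decay, 4 fell (22.2%) and 0 rose, with a median of -0.55, among them EXOSC8 (2.26-fold), TTC37 (1.64-fold) and EXOSC10 (1.52-fold). ALG5 overlaps part of EXOSC8. Of 14 core genes of stress granules, which share components with P-bodies, 8 fell (57.1%) and 0 rose, with a median of -0.69. USP10 was 2.30-fold lower, TIAL1 2.03-fold and CAPRIN1 1.79-fold. In each of these lists the median was below that of all genes under TMM and under library totals, and the calls rest on the same libraries and have the same limits as those of the members. With library totals the lists had 2, 3, 3, 0 and 4 genes called lower, in the order given here, where 6.01% of all genes were.

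**Figure D5:**
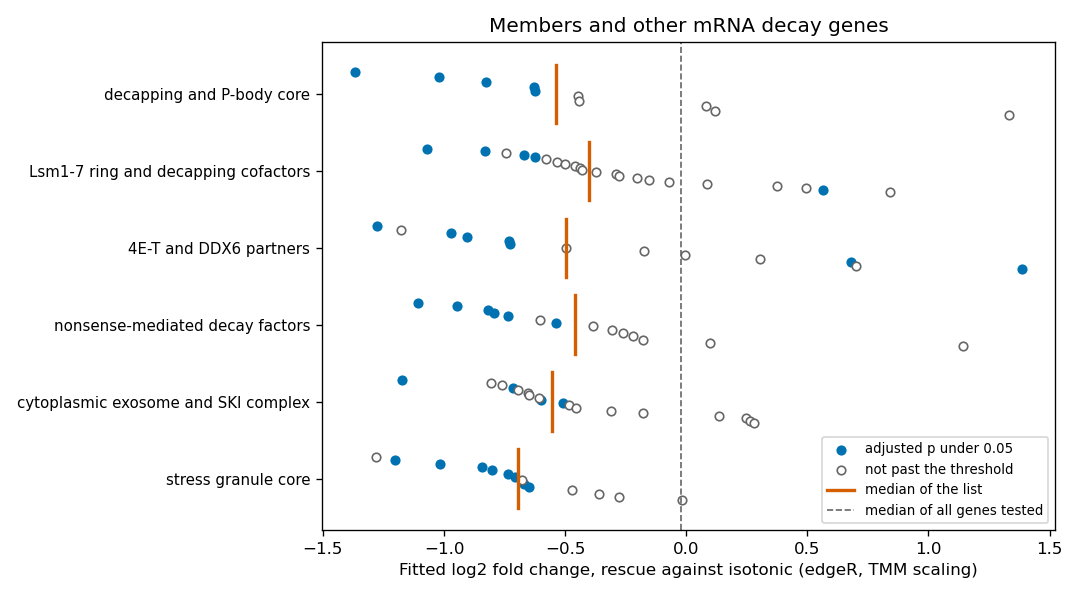
Fitted log2 fold change in rescue against isotonic for each gene (points, filled for an adjusted p under 0.05), the median of each list (orange lines) and the median of all genes tested (dashed line). The medians of the lists lie between -0.40 and -0.69, and DCP1B at 1.33 is the highest member.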

How the data were processed

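Each library came with 1 table of whole-number counts by gene, which the authors deposited without normalization. The submitters' processing notes list TopHat2, Bowtie2, bcl2fastq and bedtools, and the build GRCh38 (hg38). Tool versions, the annotation and the use of strand were not given in the sources used. Of 19907 distinct names 33 were on more than 1 row, none of them a gene of the lists. Levels are CPM by library total. Tests used edgeR 4.0.16 (filterByExpr, TMM, robust quasi-likelihood fit of all 6 libraries with a mean per group, Benjamini-Hochberg adjustment over 18208 genes, two-sided threshold 0.05), with 3 residual degrees of freedom, and SE is the log2 fold change over the square root of F. The steps were tested on simulated data. Alternatives were other scalings, no filter, DESeq2 1.42.0, limma 3.58.1 voom, only the groups compared, a replicate block and libraries left out. Coordinates and exon lengths are from GENCODE 29. All members, their paralogues and, per decay list, up to 3 called genes in each direction, averaging 5 CPM or more, were named, and genes overlapping a member; 1 gene that the rule names is not reported here. Members and lists were chosen with earlier results of these data known.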

Additional observations from a re-analysis of the deposited data

Results flagged for a closer look

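For 8 of the 10 members the fitted change of hypertonic against isotonic had opposite signs in the 2 replicate numbers, each passing edgeR's test when the isotonic and hypertonic libraries of the other number were left out and the spread was taken from the rescue libraries. DCP1B stood at -1.92 in number 1 and 1.97 in number 2, EIF4ENIF1 at -0.57 and 0.57, EDC3 at -0.37 and 0.49, and XRN1 at -0.34 and 0.28. EDC4 stood at 0.45 and -0.38, DCP2 at 0.27 and -0.26, LSM14A at 0.24 and -0.25, and DDX6 at 0.20 and -0.19. In the same fits 32.6% of all genes were called lower and 31.6% higher in number 1, and 31% and 32.9% in number 2. Over all genes, the deviations from the group means correlated at -0.88 between isotonic and hypertonic libraries of the same number. A reversal between the numbers is therefore not particular to the members, and the share of all genes with it was not counted. The difference between the numbers was not tested itself, and each number holds 1 isotonic and 1 hypertonic library.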

How the results depend on the processing

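With 2 libraries a group, calls depended on single libraries. Over the 16 alternatives to each member's fitted change in rescue against isotonic, DCP1A, EDC4 and PATL1 kept their direction in all and passed in 11, DDX6 in 10 and LSM14A in 5. These alternatives include the fits of number 1 only and number 2 only, whose spread came from the rescue libraries alone. The cause of the differences was not tested. Depth did not limit the members, whose counting error was at most 3.29%. With TMM scaling the mean summed level in rescue was 1116 CPM, and the sums in isotonic 1 and 2 were 1827 and 1799 CPM.

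In rescue against isotonic, upper quartile scaling called 3 members lower and, of all genes, 1404 lower, library totals called 1095 genes lower, and DESeq2 called 3280 genes higher and 3761 lower. In rescue against hypertonic the same settings gave 3 members, 1448, 1098, 3317 and 3788 genes. In hypertonic against isotonic, DESeq2 called 1 gene lower.

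Leaving out 1 library gave between 0 and 4 members lower in either rescue comparison and, of all genes, between 0 and 1541 higher and 0 and 1920 lower in rescue against isotonic, and between 0 and 1681 higher and 0 and 2017 lower in rescue against hypertonic. The smallest counts came from leaving out a library of the groups compared. The fits of number 1 only and number 2 only hold 1 isotonic and 1 hypertonic library each. Their spread came from the rescue libraries alone, so their calls do not measure spread in those 2 groups. With number 1 only, rescue against isotonic had 8 members lower and 1 higher (7115 and 7476 of all genes), rescue against hypertonic 7 and 3 (7466 and 7561), and hypertonic against isotonic 4 and 4 (6013 and 5828). With number 2 only these were 7 and 3 (7402 and 7496), 8 and 1 (7111 and 7475), and 4 and 4 (5716 and 6060). EDC3 and EIF4ENIF1 reversed in rescue against isotonic without isotonic 2 and with number 1 only (-0.077 and -0.18 in both), with ranges over single libraries left out of -0.077 to 0.34 and -0.18 to 0.40. In rescue against hypertonic they reversed without hypertonic 1 and with number 2 only (-0.15 and -0.17 in both), with ranges of -0.15 to 0.30 and -0.17 to 0.39.

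The replicate numbers did not pair the samples: the deviations from the group means correlated at -0.88 between isotonic and hypertonic, -0.03 between isotonic and rescue and 0.04 between hypertonic and rescue. With the replicate number as a block, edgeR called 0 members and 0 of all genes in each comparison, with 5 members and 26.9% and 27.4% of all genes at an unadjusted p under 0.05 in rescue against isotonic and against hypertonic. With the crossed pairing as the block, chosen after seeing the data, 6 genes were called higher and 15 lower in hypertonic against isotonic, and 0 members.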
